A study of Danio rerio with 6 samples.

Results

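The genes described here had the same 2 high samples as *dlx3b* and were limited by selection to group means at most 1.5-fold apart. These 16 genes stood high in wild-type replicate 2 and in morphant replicate 3, and lower in the other samples of their own groups. They were found among 11139 eligible genes, out of 32266 listed in the deposited count table, that lay off the mitochondrial genome and off the part of chromosome 4 starting at or beyond 30 Mb, and had a mean raw count of at least 100. For each gene, CPM, the raw count scaled to the sum over all genes of that sample, was taken as the level. A gene was kept where wild-type replicate 2 had at least 2 times the CPM of both other wild-type samples, morphant replicate 3 had at least 1.5 times the CPM of both other morphant samples, and the larger group mean was at most 1.5 times the smaller. The 2 knockdown targets, *dlx3b* and *dlx4b*, met these limits themselves and were set aside. The genes were thus selected on the measured CPM of these same 6 samples, and the ratios and correlations given below describe them and test nothing.

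RNA was sequenced from *pax8*:DsRed-positive cells sorted by fluorescence from zebrafish embryos at 6 to 9 somites, with 3 wild-type samples and 3 samples of *dlx3b/4b* morphants. Both groups came from AB fish and carried the *pax8*:DsRed transgene in heterozygous form, and morphants had in addition received antisense morpholinos against *dlx3b* and *dlx4b* at the one-cell stage. No control injection is described for the wild-type group, so that loss of Dlx3b/4b and the injection cannot be told apart. The transgene is active in the nephric anlagen as well as in the OEPD, the progenitor domain of ear and epibranchial ganglia, and any change in a level can mean fewer cells of a type or less RNA per cell, which bulk counts cannot tell apart.

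The OEPD is a patch of ectoderm beside the hindbrain from which the inner ear and the epibranchial sensory ganglia form. It arises within the preplacodal ectoderm, a band at the border between neural plate and epidermis that is marked by particular homeodomain genes and by their *eya* partners. Dlx3b and Dlx4b are homeodomain transcription factors of the non-neural ectoderm and preplacodal region, and together with Foxi1 they make ectoderm competent to answer the Fgf signals that induce the OEPD. Morpholinos that block translation or splicing act on a transcript's use and need not lower its count, so that the RNA of a targeted gene is a weak check of a knockdown.

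The targeted genes set the pattern. *dlx3b* (ENSDARG00000014626, chromosome 12, forward strand) had 48.1, 140.8 and 30.9 CPM in the wild-type samples, given in the order of replicates 1 to 3 here and below, and 49.98, 80.7 and 178.5 CPM in the morphant samples. The wild-type mean was 73.3 ± 59.1 CPM and the morphant mean 103.1 ± 67.1 CPM (SD, n = 3 for each), so that the ranges of the groups overlapped and each was wider than the distance between the means. *dlx4b* (ENSDARG00000071560), its neighbour on the chromosome, had 6.18, 24.7 and 3.93 CPM in the wild-type and 4.15, 8.68 and 23.8 CPM in the morphant samples. Wild-type replicate 2 was thus 2.93 times the next wild-type sample for *dlx3b* and 3.99 times for *dlx4b*, and morphant replicate 3 was 2.21 and 2.74 times the next morphant sample. Pearson's r between the pair was 0.96 on log2(CPM + 1) over the 6 samples. Their starts lay 11216 bp apart. Morphant replicate 1, with low *dlx3b* and *dlx4b*, and morphant replicate 3, with high, carried the same label.

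The samples were alike in depth. Totals on genes ranged from 27373965 to 28480101 counts in wild-type and from 23846555 to 26250129 in morphant samples, and 3 counts corresponded to 0.105 to 0.126 CPM. The mitochondrial share of counts was 4.63% in wild-type replicate 2 and 2.02% to 3.09% in the other samples. Wild-type replicate 2 and morphant replicate 3 had the smallest totals and the fewest genes with a count in their groups. The latter numbered 22032, 21368 and 22825 in the wild-type and 22150, 22836 and 21873 in the morphant samples. The share of counts on the top 20 genes was also largest there, at 11.85%, 12.89% and 10.92%, and 11.26%, 10.87% and 11.36%. The part of these library traits in the pattern was not tested. Markers of the labelled tissues were present: *PAX8* had 232.7 to 405.1 CPM and the nephric gene *lhx1a* 203.2 to 247.2 CPM over the 6 samples. Neither is particular to the OEPD. Of the other OEPD markers, *PAX2* (ENSDARG00000028148) had 535.5 to 727.6 CPM and *fgf24* 23.0 to 43.0 CPM. *SOX9* (ENSDARG00000043923) varied far more, with 106.7, 427.5 and 91.6 CPM in the wild-type and 26.1, 35.5 and 54.5 CPM in the morphant samples. The other *SOX9* identifier had 19.9 to 42.6 CPM. Other cell types were also measured. The blood and vessel regulator *TAL1* had 574.3 to 996.4 CPM and the periderm keratin *krt4* 333.7 to 877.4 CPM. The muscle regulator *MYOD1* had no more than 2.82 CPM. Other genes of the paraxial mesoderm and muscle list were higher, with 5.04 to 9.69 CPM for *MYF5*, 8.11 to 21.5 for *tbx6* and 79.6 to 197.1 for *tbx16*.

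Among the 16 genes, 4 encode transcriptional regulators of the placodal ectoderm: *foxi1*, *SOX3*, *eya2* and *IRX5*. Positions are those of the deposited table, for which the submitters' notes name GRCz10 and the study's methods GRCz11. *foxi1* (chr12:43916243-43918010, reverse strand), the forkhead factor that gives ectoderm its OEPD competence, had 8.57, 19.5 and 5.09 CPM in the wild-type and 4.38, 12.7 and 26.2 CPM in the morphant samples. These stand for 145 to 535 raw counts in wild-type and for up to 624 in morphant samples. Morphant replicate 3 was the highest of all 6 samples and morphant replicate 1 the lowest, so that the widest gap lay inside the morphant group. The group means, 11.1 ± 7.54 CPM in wild-type and 14.4 ± 10.99 CPM in morphant samples (SD, n = 3 each), were closer to each other than to the extremes of either group. The same 2 samples were high for *SOX3* (chr14:32402387-32404150, reverse strand), a SoxB1 factor of neural progenitors and placodes, with 21.7, 51.2 and 19.9 CPM in the wild-type and 9.30, 29.1 and 47.3 CPM in the morphant samples. For *SOX3* the other wild-type samples nearly coincided, whereas the morphant samples were spread evenly.

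*eya2* (chr6:55925603-56013158, reverse strand), a transcriptional coactivator and phosphatase that partners homeodomain factors, had 5.82, 13.2 and 5.41 CPM in the wild-type and 3.12, 6.21 and 10.2 CPM in the morphant samples. *IRX5* (chr7:35435288-35438786, reverse strand), an Iroquois homeodomain factor, had 4.79, 13.1 and 3.79 CPM in the wild-type and 2.10, 4.13 and 10.4 CPM in the morphant samples. Both genes had their highest level in wild-type replicate 2 and their lowest in morphant replicate 1. *IRX5* was the lowest in depth of the 4 regulators, with 55 counts in morphant replicate 1, the smallest count of any of the 16 genes. Its ratio of wild-type replicate 2 to the next wild-type sample was 2.73 and that of morphant replicate 3 to the next morphant sample 2.53, compared with 2.27 and 1.65 for *eya2*.

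**Figure D1:**
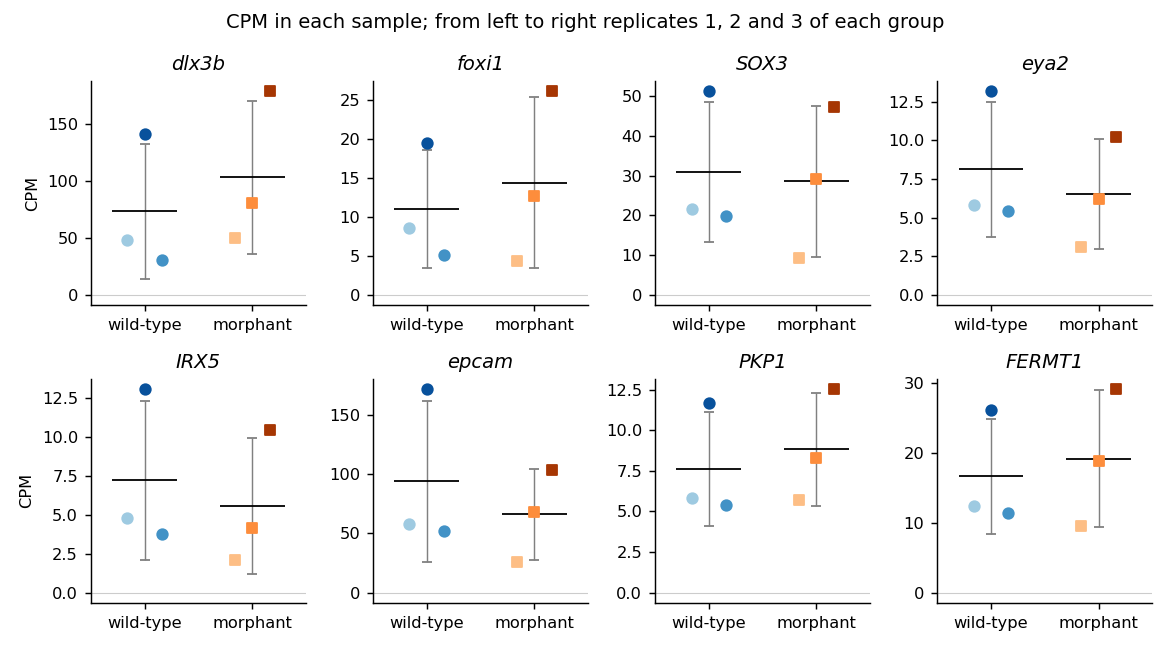
CPM (linear axes, each from 0) in each of the 6 samples for *dlx3b* and for *foxi1*, *SOX3*, *eya2*, *IRX5*, *epcam*, *PKP1* and *FERMT1*, with points for samples (replicates 1 to 3 from left to right), black lines for group means and bars for the SD (n = 3). In each panel wild-type replicate 2 and morphant replicate 3 stand above the other samples of their groups, as for *foxi1* with 19.5 and 26.2 CPM.

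A second group of 5 genes, put together here by known function with the set in view, encodes proteins of cell adhesion or of membrane links to the cytoskeleton. Of these, only *epcam* and *PKP1* are on the list of epidermal keratin, junction and surface genes used below. *epcam* (chr13:8508749-8511340, forward strand), the epithelial cell adhesion molecule, was the most abundant of the 16 genes, with 57.6, 171.8 and 51.9 CPM in the wild-type and 26.3, 68.5 and 103.1 CPM in the morphant samples. It rested on 691 to 4704 counts per sample. The high wild-type sample was 2.98 times the next one (95% interval 2.82 to 3.16, exact binomial for counting error only), and the high morphant sample 1.51 times (1.42 to 1.602), just inside the limit. *PKP1* (chr6:54703198-54745934, forward strand), a plakophilin of the desmosomal plaque, had 5.82, 11.7 and 5.37 CPM in the wild-type and 5.68, 8.26 and 12.5 CPM in the morphant samples. *PKP1* was one of 3 genes in which morphant replicate 3 exceeded wild-type replicate 2, together with *foxi1* and *FERMT1*. *FERMT1* (chr20:45871713-45908601, reverse strand), whose human homologue kindlin-1 activates integrins in keratinocytes, had 12.4, 26.2 and 11.4 CPM in the wild-type and 9.52, 18.8 and 29.1 CPM in the morphant samples.

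*ctnnd2b* (chr2:30570723-30710209, reverse strand), a delta-catenin of the p120 family that binds cadherins, had 10.3, 24.5 and 10.4 CPM in the wild-type and 6.32, 12.0 and 18.6 CPM in the morphant samples. *ank3b* (chr12:7612388-7902807, reverse strand), an ankyrin that ties membrane proteins to spectrin, had 5.29, 16.4 and 4.46 CPM in the wild-type and 3.31, 6.25 and 12.2 CPM in the morphant samples. The *ank3b* ratio between wild-type replicate 2 and the next wild-type sample, 3.11, was the largest of the 16, and its locus, with 47 exons, was the longest. For all 5 genes of this group morphant replicate 2 lay between the other morphant samples.

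The remaining 7 genes shared no function known here. *ZNF385A* (chr23:28259143-28368222, reverse strand), a zinc finger protein, had 5.07, 14.5 and 4.78 CPM in the wild-type and 2.25, 4.13 and 11.5 CPM in the morphant samples, and its morphant ratio of 2.78 was the largest of the set. *myl10* (chr10:33227953-33236059, forward strand), a myosin regulatory light chain, had 8.50, 19.5 and 6.81 CPM in the wild-type and 3.01, 7.29 and 14.1 CPM in the morphant samples. *mid1ip1a* (chr9:30452442-30453669, reverse strand), homologous to a mammalian protein that promotes polymerization of acetyl-CoA carboxylase, had 10.3, 21.2 and 8.39 CPM in the wild-type and 5.26, 10.2 and 15.6 CPM in the morphant samples. Each of these 3 genes was highest in wild-type replicate 2 and lowest in morphant replicate 1. *inavaa* (chr8:23732009-23754405, reverse strand), named for the mammalian innate immunity activator INAVA, had 7.68, 18.7 and 7.02 CPM in the wild-type and 3.09, 7.80 and 12.2 CPM in the morphant samples. *STRBP* (chr10:9878451-10059882, reverse strand), a double-stranded RNA binding protein, had 2.57, 6.47 and 2.91 CPM in the wild-type and 2.44, 3.36 and 6.42 CPM in the morphant samples. For *STRBP* the 2 high samples were nearly level with each other, unlike *inavaa*, where wild-type replicate 2 stood above morphant replicate 3.

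The last pair has no assigned role. ENSDARG00000103442 (chr11:41430444-41432228, reverse strand), which has no symbol in the name table, had 4.71, 10.5 and 3.05 CPM in the wild-type and 2.171, 4.59 and 6.96 CPM in the morphant samples. *si:rp71-1n18.1* (chr22:11726372-11749889, forward strand) had 2.61, 8.40 and 3.05 CPM in the wild-type and 3.01, 3.40 and 7.09 CPM in the morphant samples. An exon of this gene overlaps the keratin gene *krt97* on the same strand, so that counts at the shared bases are uncertain between them. *krt97* itself had 19.1, 51.9 and 23.6 CPM in the wild-type and 31.1, 38.1 and 47.3 CPM in the morphant samples, and did not meet the morphant ratio.

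**Figure D2:**
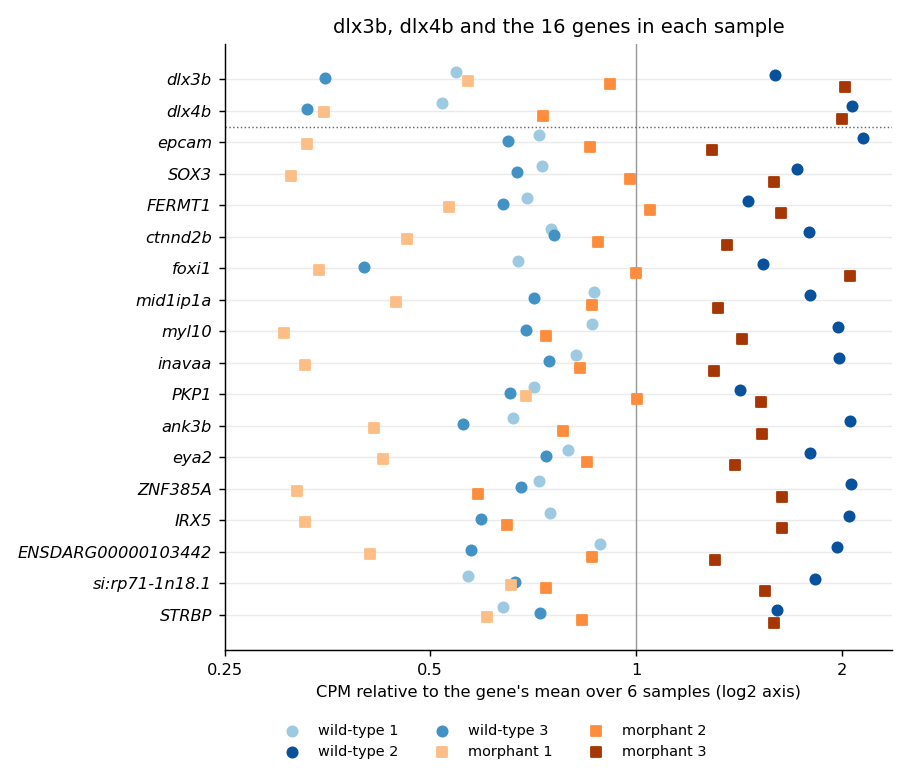
Level of *dlx3b*, *dlx4b* and each of the 16 genes (1 line per gene) relative to that gene's mean CPM over the 6 samples, on a log2 axis, with a coloured point for each sample. The median over the 16 genes was 1.81 in wild-type replicate 2 and 1.53 in morphant replicate 3, against 0.411 in morphant replicate 1.

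The order of the samples within the set was partly fixed by the limits, which place wild-type replicate 2 and morphant replicate 3 highest in their groups. Only the other 2 samples of a group can then be lowest, whereas any of 3 can among all eligible genes. The shares of all eligible genes are thus not a like baseline, and nothing is read from the counts. Morphant replicate 1 had the lowest level of the 3 morphant samples for 16 of 16 genes, as it did for 42.3% of all eligible genes, and the lowest of all 6 samples for 14. Wild-type replicate 3 was the lowest wild-type sample for 13 genes, against 25.9% of all eligible genes. The exceptions were *ctnnd2b*, *STRBP* and *si:rp71-1n18.1*, in which wild-type replicate 1 was lower. Wild-type replicate 2 exceeded morphant replicate 3 for 13 genes, and the ratio between them had a median of 1.28 and ranged from 0.747 to 1.67. Morphant replicate 3 was 3.49 times morphant replicate 1 at the median (2.21 to 5.97), whereas wild-type replicates 1 and 3 differed by a median ratio of 1.09 (0.854 to 1.68). Morphant replicate 2 lay between the other morphant samples, at a median of 1.97 times morphant replicate 1. The limits ask for a larger lead of the high sample in the wild-type than in the morphant group. A graded morphant series beside a single high wild-type sample is thus partly set by these limits, and nothing is read from it. Summed over the 16 genes, the level was 173.7, 446.8 and 153.8 CPM in the wild-type and 91.3, 206.8 and 343.6 CPM in the morphant samples. *epcam* made up the largest part of that sum in every sample. Over the 120 pairs of the 16 genes, r on log2(CPM + 1) had a median of 0.946 (0.805 to 0.997) over the 6 samples, which share their libraries and which the limits already require to be similar.

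**Figure D3:**
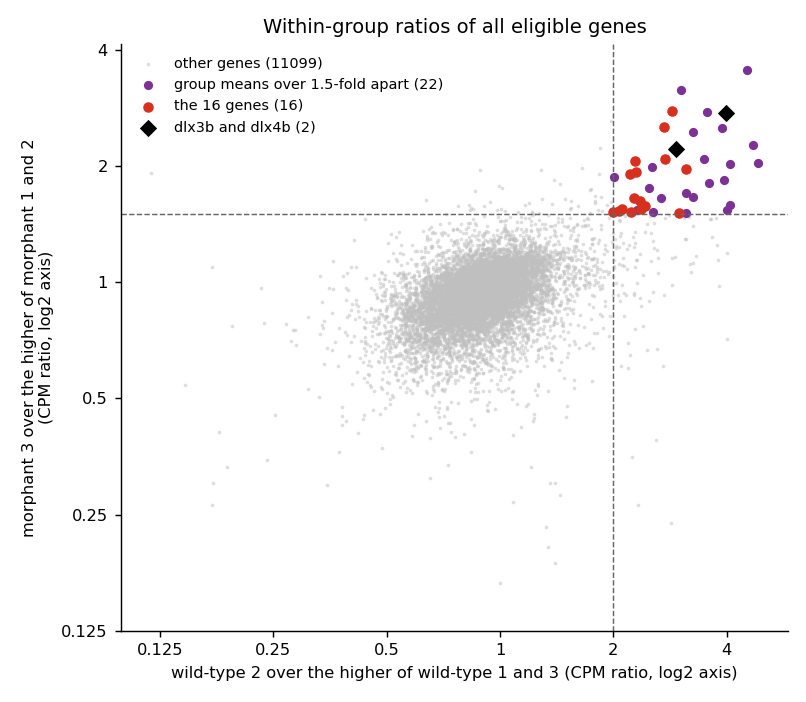
Ratio of wild-type replicate 2 to the higher of the other wild-type samples (x axis) against the ratio of morphant replicate 3 to the higher of the other morphant samples (y axis), both on log scales, for all eligible genes, with the 2 limits as dashed lines and with the 16 genes, *dlx3b* and *dlx4b*, and the 22 genes of unequal group means marked. The 16 genes lie past both limits, at median ratios of 2.33 and 1.63 against 0.895 and 0.940 for all eligible genes.

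Few genes passed both ratios. The wild-type ratio was met by 133 of the 11139 eligible genes, the morphant ratio by 88, and both by 40 (0.359%), of which 18, with *dlx3b* and *dlx4b*, also met the limit on the group means. At the wild-type limit of 2, *PKP1* (2.00), *mid1ip1a* (2.07) and *FERMT1* (2.11) were the closest inside, and *COL14A1* (1.97) and *si:dkey-225i9.4* (1.93) were close to it outside. *COL14A1* encodes a fibril-associated collagen. At the morphant limit of 1.5, *epcam* (1.51), ENSDARG00000103442 (1.52) and *PKP1* (1.52) were inside, and *vgll4l* (1.48), *GSN* (1.47) and *si:dkey-222n6.2* (1.45) outside. The limit on the group means was the one with the clearest gap, since *inavaa* (1.44) lay inside and the placodal gene *six4a* (1.63) was the nearest outside. Counting error alone, by exact binomial 95% intervals, left both ratios above 1 for all 16 genes, and left both above their limits for 4, which were *IRX5*, *ZNF385A*, *ank3b* and *si:rp71-1n18.1*. For the other 12 genes at least 1 interval reached below its limit. The intervals rest on the same counts that selected the genes and leave out differences between samples and error from cDNA amplification. Lower bounds above 1 were thus close to fixed by the selection, and nothing is read from them. Without morphant replicate 2, 43 genes met the remaining limits and included all 16, without wild-type replicate 1, 21 genes did and included 11, and without wild-type replicate 3, 17 did and included 9. With mitochondrial genes left out of the totals, 17 genes met the limits, so that the mitochondrial share of wild-type replicate 2 moved the number by 1.

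In position and structure the 16 genes had little in common. They lay on 13 chromosomes, and none started within 100 kb of another, the closest pair being *PKP1* and *eya2* on chromosome 6 with starts 1222405 bp apart. *foxi1* and *ank3b* shared chromosome 12 with *dlx3b* and *dlx4b*, at 38242800 and 1938945 bp from the start of *dlx3b*. Their merged exon length had a median of 2364.5 bp, against 2580 bp for all eligible genes, and the median number of exons was 10 in both. *SOX3*, *mid1ip1a* and ENSDARG00000103442 have a single exon, which makes 18.75% of the set against 1.78% of eligible genes. Per kilobase of exon, mean levels were lower than usual, with a median of 3.15 CPM per kb against 10.4 for all eligible genes. Limits on ratios are more easily passed through counting error at low counts, so that nothing is read from this difference. *epcam*, at 54.1 CPM per kb, was near *dlx3b* at 55.4, and *ank3b*, at 1.104, was the lowest of the set.

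Gene lists of the tissues around the OEPD showed which genes had the same 2 high samples. Any of the 16 genes on a list are counted in its share, and these have the 2 high samples by selection. Among all eligible genes, 15.95% were highest in wild-type replicate 2 within the wild-type group and in morphant replicate 3 within the morphant group. Among preplacodal and placodal regulators the share was 14 of 16 eligible genes (87.5%), and 9 of them met both ratios. Both counts include the 4 regulators described above, which were selected for this pattern. The other 5 that met both ratios, *six4a*, *six4b*, *EYA4* and *irx7* among them, had group means more than 1.5-fold apart. The homeodomain factors encoded by *six4a* and *six4b* bind DNA and can recruit Eya proteins such as *eya2* and *EYA4* as coactivators. The list's median ratios were 2.44 in wild-type and 1.63 in morphant samples, and both again include the 4 selected regulators. Morphant ratios of its other eligible genes ran from 0.839 (*EMX2*) to 3.14 (*EYA4*). Among them *IRX1*, *otx2a*, *PRDM1* and *OTX2* led by little, at 1.05 to 1.12. The exceptions to the 2 high samples were *eya3* and *EMX2*. *eya3* had 94.4 to 109.6 CPM in all samples, and *EMX2* was highest in morphant replicate 2 among the morphant samples. Summed over its 26 genes, the list had 414.4, 823.9 and 374.9 CPM in the wild-type and 278.1, 388.5 and 517.1 CPM in the morphant samples.

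Many markers of the surface ectoderm were highest in the same samples, though mostly by a small lead in the morphant group. Of 35 eligible epidermal keratin, junction and surface genes, 23 (65.7%) were highest in both samples, with *epcam* and *PKP1* as members. The summed level of this list ranged from 2471 to 4676 CPM in wild-type and from 1982 to 3226 CPM in morphant samples, with wild-type replicate 2 and morphant replicate 3 at the top, and 1 of its 51 genes was at 0 in all samples. *krt4* had 333.7, 877.4 and 485.1 CPM in the wild-type and 374.8, 620.4 and 671.7 CPM in the morphant samples, which is the same order except that wild-type replicate 3 exceeded replicate 1. *TP63*, the master regulator of basal epidermis, had 14.7, 23.8 and 10.4 CPM in the wild-type and 6.93, 17.2 and 22.7 CPM in the morphant samples. It belongs to the list of non-neural ectoderm and epidermal regulators, of which 6 of 18 were highest in both samples, with median ratios of 1.11 and 0.899, and *GATA3*, *GRHL1* and *KLF3* were among those that were not. Over the list of epidermal keratin, junction and surface genes the median ratios were 1.71 in wild-type and 1.07 in morphant samples. Its keratin genes *cyt1* (2.63), *krt17* (2.28), *krt97* (2.20), *krt8* (2.08) and *cyt1l* (2.07) reached the wild-type limit of 2. Their morphant ratios, 1.15, 1.26, 1.24, 1.32 and 1.23, were below the limit of 1.5. The other eligible keratin genes were below 2 in wild-type, at 1.92 (*krt91*), 1.90 (*krt92*), 1.81 (*krt4*), 1.71 (*krt5*), 1.58 (*krt18a.1*) and 0.674 (*krt18b*). Neural plate genes behaved similarly, with 10 of 17 highest in both samples, *SOX3* among them, and summed levels of 239.5 to 388.1 CPM in wild-type and 209.4 to 414.3 CPM in morphant samples. The part of these ectodermal levels in the pattern of the 16 genes was not tested.

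Otic and epibranchial genes were highest in both samples for 13 of 23 (56.5%) and neural crest genes for 5 of 11 (45.5%). The mesodermal lists were below the share of all eligible genes. None of 16 eligible blood and vascular genes and 1 of 13 paraxial mesoderm and muscle genes were highest in both samples, and of 18 nephric and intermediate mesoderm genes 2 were. Summed blood and vascular levels were lowest of the wild-type samples in replicate 2 (3190 against 3747 and 4319 CPM) and lowest of the morphant samples in replicate 3 (2965 against 3127 and 3182 CPM). The hatching gland and axial mesoderm list had 1 of 14, and the dissociation and stress list 2 of 27. Ribosomal protein genes were highest in both samples for 79 of 82 (96.3%), by a small factor: the median ratio was 1.26 in wild-type and 1.15 in morphant samples. With TMM scaling (trimmed mean of M-values, a correction of library totals) the shares were 79 of 82 for ribosomal proteins, 14 of 16 for preplacodal regulators and 25 of 35 for the epidermal list, against 19.5% of all eligible genes.

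**Figure D4:**
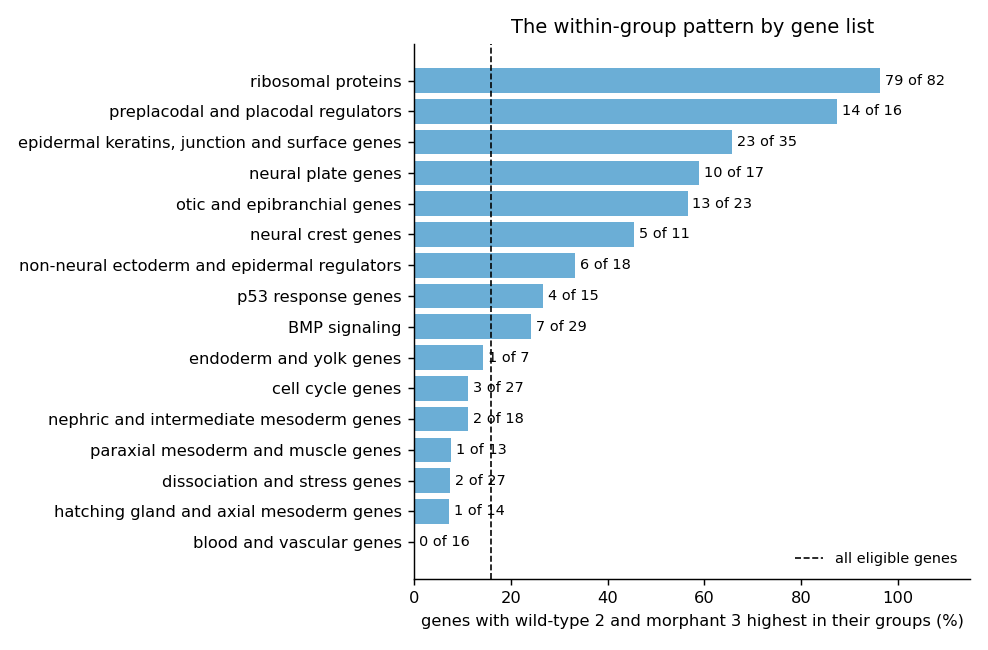
Share (%) of each list's eligible genes that were highest in wild-type replicate 2 within the wild-type group and in morphant replicate 3 within the morphant group, with the numbers of genes, and the share of all eligible genes (15.95%) as a dashed line. Ribosomal proteins (96.3%) and preplacodal regulators (87.5%) lie farthest above that line, and blood and vascular genes are at 0. Genes of the selected set are counted in their lists.

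Likeness to *dlx3b* in the shape of the profile was a different matter from the size of the ratios. Ranked by r with *dlx3b* on log2(CPM + 1) over the 6 samples, the ribosomal protein genes *RPL21* (0.991) and *RPS12* (0.991) came first, with ratios of only 1.23 and 1.18, and 1.22 and 1.17. The Iroquois gene *irx7* ranked 6th at 0.985, and *PKP1*, at 0.981, was the nearest of the 16 genes, in rank 11. *foxi1* and *FERMT1* followed within the set at 0.94 each, and *inavaa* was the farthest at 0.71. These 3 nearest genes were those in which morphant replicate 3 exceeded wild-type replicate 2, as it did for *dlx3b*. With *dlx4b*, in which these 2 samples were nearly level, r ranged from 0.868 to 0.983 over the 16 genes. These correlations rest on 6 points that share their libraries and are given as a description.

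Between the groups, none of the 16 genes was called. All 16 passed the filter on low counts, and 0 reached an adjusted p under 0.1 in the edgeR fit (quasi-likelihood F test, Benjamini-Hochberg), where 10.9% of all tested genes did, 4.85% higher and 6.05% lower in morphants. Without the replicate number as a block the count was again 0, where 13.7% of tested genes were called, 6.2% higher and 7.52% lower. At an unadjusted p under 0.05 in the edgeR fit with the block the number was also 0, where 3956 of 17526 tested genes passed. By DESeq2 at the same adjusted threshold it was 0 as well, where 2037 tested genes were called with the block and 3074 without it. Since the selection limits the distance between group means and asks for wide spread in both groups, nothing is read from these counts. The morphant mean was below the wild-type mean for 12 genes and above it for *FERMT1*, *foxi1*, *PKP1* and *STRBP*. The log2 fold changes had a median of -0.33 and ranged from -0.63 (*myl10*, standard error 0.46) to 0.23 (*PKP1*, standard error 0.32), beside a median of -0.01 over 17526 tested genes. The lowest adjusted p was 0.419, for *inavaa* at a log2 fold change of -0.59 (standard error 0.40). *epcam* alone was called in a single alternative, with no filter on low counts (log2 fold change -0.50, adjusted p = 0.0928). *dlx3b* and *dlx4b* were not called either, with log2 fold changes of 0.54 (standard error 0.53) and 0.08 (standard error 0.68).

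**Figure D5:**
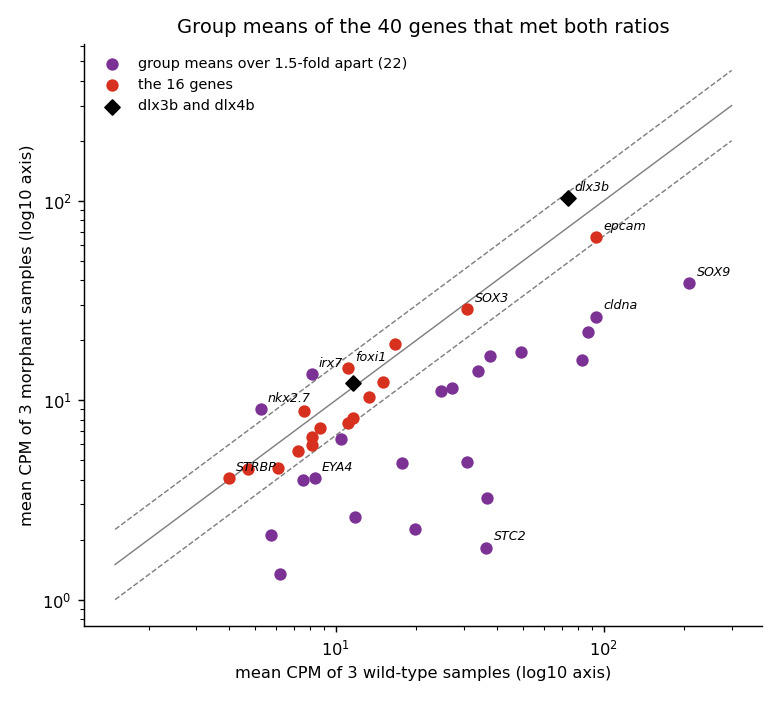
Mean CPM in morphant samples (y axis) against mean CPM in wild-type samples (x axis), on log scales, with n = 3 each, for the 16 genes, *dlx3b*, *dlx4b* and the 22 genes that met both ratios but had group means more than 1.5-fold apart, with equal means as a solid and 1.5-fold differences as dashed lines. The 16 genes lie near the diagonal, and 20 of the 22 others lie below it.

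The 22 genes that met both ratios but not the limit on group means carried the same 2 high samples on top of a group difference. Their morphant mean was lower for 20 and higher for 2, *irx7* and *nkx2.7*, and the means lay 1.63-fold to 19.96-fold apart. Of the 22, 11 were called lower in morphants and 0 higher; the selection by group means used this contrast, and nothing is read from the count. Several are otic and placodal genes. *six4b* had 25.9, 64.5 and 22.6 CPM in the wild-type and 10.5, 14.2 and 25.0 CPM in the morphant samples. *cldna*, a claudin of the otic placode, had 55.6, 181.3 and 43.9 CPM in the wild-type and 9.03, 20.2 and 49.4 CPM in the morphant samples. Its morphant samples overlapped the lower wild-type samples only in replicate 3. *STC2*, a stanniocalcin, had 18.4, 75.0 and 15.9 CPM in the wild-type and no more than 3.36 CPM in any morphant sample, so that the groups were apart while the 2 high samples were still high. *foxi1* and *irx7* had the reverse tilt, with the highest level of all 6 samples in morphant replicate 3 (23.1 CPM for *irx7*).

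Between the groups, the lists are given by their counts of called genes, to be read against 4.85% higher and 6.05% lower among all tested genes. Of the preplacodal regulators 0 were higher and 3 lower of 24 tested. This share was near the 10.9% of all tested genes called in either direction, but above the 6.05% called lower, and it rests on 3 genes. Their list had a median log2 fold change of -0.55 beside -0.01 over all tested genes. Of the epidermal genes 0 were higher and 7 lower of 47 tested, among them the adhesion genes *cdh1* (log2 fold change -1.04, adjusted p = 0.00999, edgeR) and *cldnb* (-1.09, adjusted p = 0.0266, edgeR). *cdh1*, E-cadherin, had 146.5, 220.0 and 132.4 CPM in the wild-type and 74.7, 79.8 and 82.2 CPM in the morphant samples. Of the otic and epibranchial genes 3 were higher and 8 lower of 26, and of the neural plate genes 1 was higher and 3 lower of 26. The blood and vascular list, whose members never had the 2 high samples, had 2 higher and 11 lower of 18. The p53 response list, with 4 of 15 eligible genes high in both samples, had 10 higher and 2 lower of 17, and the stress list 0 higher and 13 lower of 30. For non-neural ectoderm regulators, with *foxi1* as a member, 4 were higher and 5 lower of 30, and for BMP signaling, with 7 of 29 high in both samples, 6 were higher and 3 lower of 35. Of the neural crest genes 4 were higher and 3 lower of 17. Of the nephric genes 3 were higher and 4 lower of 21, of the paraxial mesoderm genes 3 and 2 of 22, and of the hatching gland and axial mesoderm genes 1 and 3 of 20. Cell cycle genes had 3 of 27 high in both samples with 1 higher and 3 lower of 28 tested, endoderm and yolk genes 1 of 7 with 0 and 2 of 15, and ribosomal proteins 0 higher and 2 lower of 83.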

How the data were processed

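The authors deposited raw read counts per gene for 6 samples, without normalization, and all values were computed from these counts. The submitters' notes name bcl2fastq 2.17.1.14, featureCounts 1.5.2 and GRCz10, and the study's methods name GSNAP and GRCz11. Coordinates are printed as the deposited table lists them, and the build was not settled between these sources. The 92 spike-in features had 0 counts and were left out. Strand use in counting is not given in the sources used here. Symbols came from a name table that matched 26433 of 32266 identifiers and 15 of the 16 genes, and many are written in human capitals.

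Groups came from the sample labels. CPM used the plain sum over genes. The groups were compared in R 4.3.3 by means of edgeR 4.0.16 (TMM, filterByExpr, quasi-likelihood test, Benjamini-Hochberg), with the replicate number as a block in place of the clutch, because the methods describe a design with a clutch effect. DESeq2 1.42.0, RLE normalization, no filter, no block, other limits and leaving out samples were the alternatives. Intervals of ratios are exact binomial at 95% and cover counting error only. They treat reads as independent, whereas the study's methods describe cDNA amplified by PCR before sequencing, so that error from amplification is left out. Standard errors are the log2 fold change divided by the square root of F. On simulated counts for this comparison (17191 genes, 200 changed) the fit with the block recovered 59% of genes changed by 1 and 88% of those changed by 2 on the log2 scale, with 3.29% false calls.

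The 16 genes and the gene lists were chosen with earlier results of these data known. The text names *dlx3b*, *dlx4b*, all 16 genes, which rules on list membership, mean CPM, ratios and r select, and genes nearest each ratio limit, of which 1 is not reported here; other genes were named after their values were seen. Of 403 list entries 382 matched a gene.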

Additional observations from a re-analysis of the deposited data

How the results depend on the processing

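The limits that define the gene set decide its size. Beside 16 genes, a wild-type ratio of at least 1.5 gave 30 genes and of at least 3 gave 1, a morphant ratio at or above the midpoint of 1 and 1.5 gave 25 and of at least 2 gave 4, a group-mean ratio at or below that midpoint gave 8 and no such limit 38, and a mean count of at least 50 gave 26 and 5 times the main minimum gave 2. TMM scaling gave 22 genes, a group-mean ratio of at most 2 gave 20, and leaving out 1 of the 4 samples that are not required to be high gave 17 to 43. The median wild-type ratio of 2.33 became 2.39 with TMM, 2.38 with DESeq2 size factors and 2.36 without mitochondrial genes, and the median morphant ratio of 1.63 became 1.69 and 1.68 with the first pair. Of the tested genes, 1911 were called with the replicate block and 2405 with no replicate block, 2037 by DESeq2 with the block and 3074 without it, 997 at an adjusted p below 0.05 and 932 to 2407 when 1 sample was left out of the fit without the block. The count of called members was 0 in each of these fits with 1 exception, 1 gene (*epcam*) with no filter on low counts. Of the listed genes 107 were called with the block and 105 without it. Same-numbered samples did not deviate together: r of their deviations from the group means over 17526 genes was 0.156, 0.0545 and -0.143 for replicates 1, 2 and 3, and wild-type replicate 2 correlated best with morphant replicate 3 (0.222), so that the block rests on a number alone. Promoter sequence and motifs were not run. The lowest count of any member was 55, and counting error alone left both ratios above their limits for 4 of the 16 genes. These intervals use the counts that selected the genes.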

Other observations

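The limits were applied to the other pairs of a wild-type and a morphant sample, as a description. With each of the other 8 pairs as the high samples, 0 to 5 genes met all limits, beside 18 for the pair that defines the set. The 5 belonged to wild-type replicate 2 with morphant replicate 2, and included the hatching gland protease gene *ctslb.4* and the matrix genes *emilin3a* and *hapln1a*. The only other gene was *PTH2R*, a parathyroid hormone receptor, high in wild-type replicate 1 and morphant replicate 1. The defining pair follows the pattern of *dlx3b* in these same counts, and its 18 genes include *dlx3b* and *dlx4b*. The selection thus favoured that pair, and nothing is read from the difference. These counts are also not independent, since the pairs share samples.

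In the mirrored direction, *HIVEP2*, *WDFY3* and *reps2* were low in wild-type replicate 2 and morphant replicate 3. Among the other pairs the number of low genes was at most 8, with replicate 3 low in both groups, and these 8 included *ctslb.4* and the apolipoprotein gene *apoa1b*. The hatching gland gene *he1.1* had 14.0, 11.7 and 0.948 CPM in the wild-type and 7.66, 9.34 and 5.58 CPM in the morphant samples. *ctslb*, the cathepsin of the same gland, had 20.4, 27.0 and 2.42 CPM in the wild-type and 9.10, 16.4 and 3.82 CPM in the morphant samples. Morphant replicate 3, high for the 16 genes, was thus the lowest morphant sample for *he1.1* and *ctslb*. Other genes of the hatching gland and axial mesoderm list differed. *he1.2* was also lowest there (2.74, 4.59 and 1.01 CPM in the morphant samples), whereas *PRDM1* was highest there (58.5, 73.4 and 78.3 CPM). *klf17* (119.4, 172.8 and 169.2 CPM) and *CD63* (36.0, 38.9 and 36.3 CPM) were lowest in morphant replicate 1.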
